A study of Mus musculus with 19 samples.

Results

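Lysosomal genes of retinal microglia were compared between 6 samples taken 3 days after laser treatment (CNV d3) and 6 samples of unlasered control mice. The set held 42 genes, chosen by symbol for their roles in the lysosome, of 27299 genes in the deposited table, and all 42 were measured. It comprised 10 glycosidases, 6 lipid hydrolases and their helper proteins, 4 genes of proteases, a thioesterase and progranulin, 6 membrane proteins, the 3 transcription factors Tfeb, Tfe3 and Mitf, and 13 genes of the proton pump. Cells of both groups came from mice aged 8 weeks. The labels give the mice as C57BL/6J and the methods as Cx3cr1 GFP/+ on that background. By the methods, both groups thus carried GFP in place of 1 Cx3cr1 allele. CNV d3 mice had received 6 laser burns per eye as a model of choroidal neovascularization, and control mice had not been lasered. Microglia had been sorted from the retina for CD45 (CD45lo in the methods), CD11b and CX3CR1 and against Ly6C, which marks monocytes, and Ly6G, which marks neutrophils. No source used here says whether animals were pooled, so the p-values measure the spread between samples, which may be partly technical.

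Lysosomes are acidic organelles in which hydrolases break down glycans, lipids and proteins that arrive by phagocytosis, endocytosis and autophagy. The vacuolar proton pump acidifies them with a membrane-embedded V0 sector and a cytosolic V1 sector that splits ATP, and some of the membrane proteins carry degradation products or ions across the membrane. The transcription factors Tfeb, Tfe3 and Mitf bind E-box motifs in the promoters of many lysosomal genes and can raise their transcription, and microglia are the cells that clear debris in the retina.

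Of the 42 genes, 10 were increased and 3 were decreased in CNV d3 at an adjusted p under 0.05 (limma on log2(normalized count + 1), Benjamini-Hochberg over all genes), and 29 were not called. The increased genes were the glycosidases Gla, Gusb, Glb1 and Gaa, the ganglioside activator Gm2a, progranulin (Grn), the membrane protein Lamp1 and the pump subunits Atp6v0d1, Atp6v1b2 and Atp6v1c1. The decreased genes were the protease Tpp1, the cholesterol transporter Npc1 and the pump accessory protein Atp6ap1. The increase amounted to 23.8% of the set, beside 8.29% of all genes, and the decrease to 7.14%, beside 4.57%. Most of the set was well expressed, and among genes with a mean of at least 500 normalized counts, a level chosen after the values were seen, 18.6% were increased and 12.7% were decreased, where the 40 lysosomal genes of that level had 9 increased (22.5%) and 3 decreased (7.5%). The median log2 fold change (log2FC) was 0.12 over the set, 0.15 over all genes and 0.06 over the genes of that level. Gla was the 1 gene past the threshold of the study, which also asks for an absolute log2FC above 1.5, and over all genes 3.91% were increased and 1.07% were decreased by that rule.

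The groups did not overlap for 7 of the 42 genes. Every CNV d3 sample lay above every control sample for Gla, Gusb, Gm2a, Grn and Atp6v0d1, and every CNV d3 sample lay below every control sample for Npc1 and Atp6ap1. Among the 40 genes with a mean of at least 500 these were 4 and 2. Both counts, as shares of the 40, lay below the 11.5% and 7.64% of all genes of that level. Gusb, Gm2a, Grn, Atp6v0d1 and Npc1 kept their call in all 24 alternative analyses. The number of increased genes fell to 5 without CNV d3 sample 5 and to 6 without CNV d3 sample 2, CNV d3 sample 6, control sample 1 or control sample 2, and the calls of Gla, Glb1, Gaa, Lamp1 and Atp6v1c1 were lost in at least 1 of the 12 fits that left out 1 sample.

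**Figure D1:**
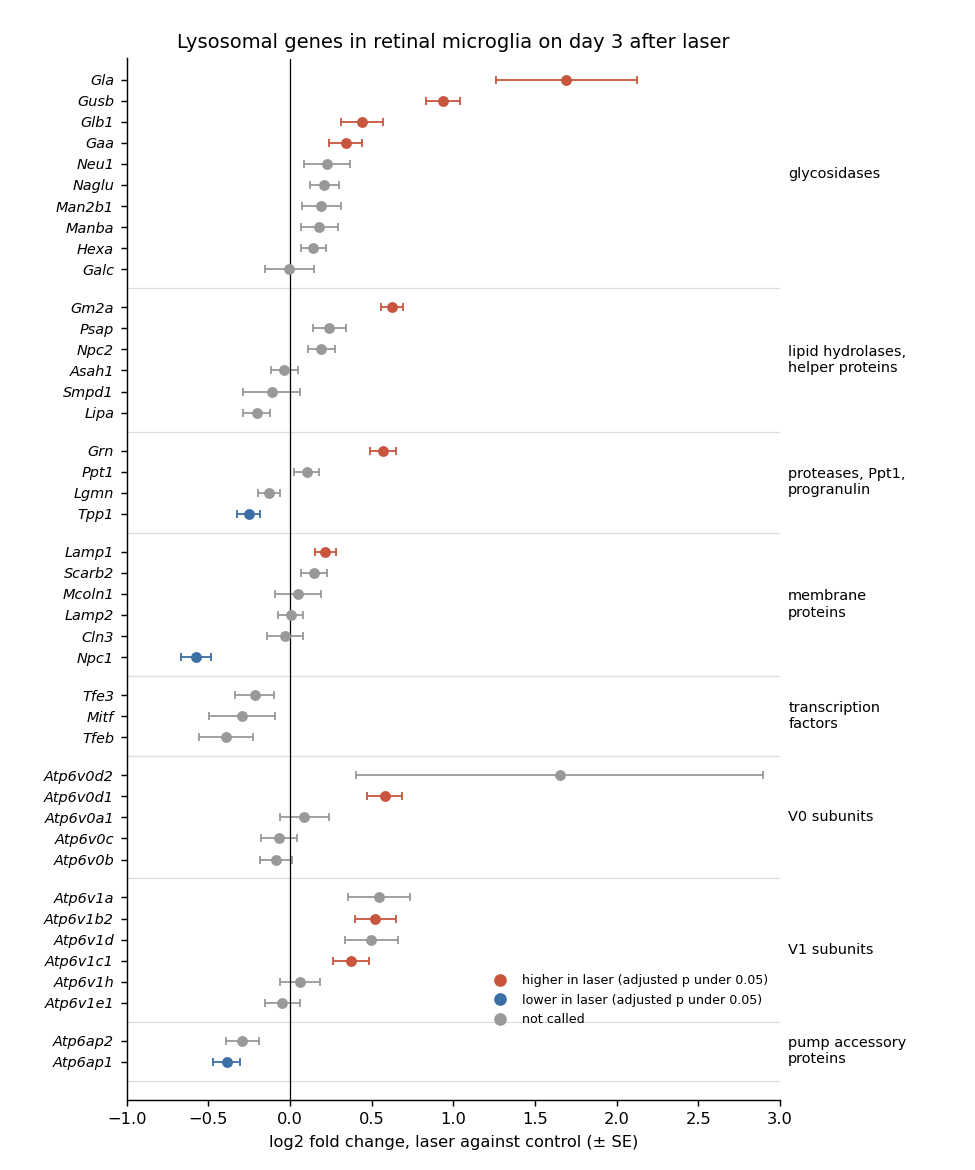
Log2 fold change of each of the 42 genes in laser (CNV d3) against control samples, with the SE of the limma fit as bars, by role. Gla had the largest called rise (1.69) and Npc1 the largest called fall (-0.58), the 3 transcription factors lie left of 0 without a call, and the wide bar of Atp6v0d2 belongs to a gene with 0 reads in 7 of 12 samples.

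The sequencing depth differed between the groups, with 10963178 to 22335233 reads on genes in control and 23532260 to 29523018 in CNV d3, and 1 read was worth 0.739 to 1.99 normalized counts. After all samples were thinned to the depth of the shallowest, 7 of the 42 genes were increased, all among the 10, and the same 3 were decreased. Markers of microglia were present in every sample, but 7 of the 10 were decreased, and their summed level was 1268940 to 1455050 normalized counts in control and 691843 to 1048500 in CNV d3. Of 12 monocyte markers 6 were increased, with a summed level of 254 to 533 in control, where Chil3, Ly6c1 and Ly6c2 were at 0 in all samples, and of 4592 to 51345 in CNV d3. All 12 markers of dividing cells were increased (89.3 to 1484 against 10407 to 25148), and 3 of 8 markers of border and perivascular macrophages were increased (2454 to 4272 against 3125 to 4282). None of 14 photoreceptor markers (897 to 7991 against 666 to 14078) and none of 11 markers of the retinal pigment epithelium and melanocytes (87.0 to 387 against 137 to 411) were called by limma (1 of each list at an unadjusted p under 0.05, all higher). Both edgeR and DESeq2 called 1 photoreceptor marker higher, and DESeq2 called 1 marker of the epithelium lower. All 14 photoreceptor markers had a log2 fold change above 0 (median 1.36), as had 9 of the 11 markers of the epithelium and melanocytes (median 0.75), where the median over all genes was 0.15. Of 8 mitochondrial transcripts 2 were increased. The part of these cells in the lysosomal results was not tested, and in bulk samples fewer cells of a type and less RNA per cell cannot be told apart. Without CNV d3 samples 3 and 6, which had the highest monocyte sums, 6 of the 42 genes were increased (Gusb, Gm2a, Grn, Lamp1, Atp6v0d1 and Man2b1) and 2 were decreased (Npc1 and Lipa). With these fewer samples the calls over all genes also fell, from 2264 to 1124 increased and from 1247 to 688 decreased. Only 1 of the 12 monocyte markers had a mean of at least 500 normalized counts, so the monocyte sums can rest largely on 1 gene. Fn1, which is among these markers, was named in the paper as a top increased gene of the sorted microglia. Whether monocytes had a part in the change was not tested.

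Promoters of 36 of the 42 genes were found in the RefSeq table (GRCm38.p6), each from 250 bases before to 50 bases after a start site, and were searched on both strands for the E-box CACGTG and for the longer GTCACGTG, which contains it. The 6-base motif was present for 11 of the 36 genes (30.6%) and for 10.6% of the genes of the deposited table with a promoter there, and the 8-base motif for 9 (25%) and 4.03%. Among the 11 genes with CACGTG, 5 were increased, none was decreased and 6 were not called, and among the 25 genes without it 3 were increased and 2 were decreased. Over all genes 8.29% were increased and 4.57% were decreased. The share called among all genes with the motif was not counted, and a link of motif and call was not tested. Of the 5 increased genes, Gla, Glb1, Gaa and Lamp1 lost their call in some fits that left out 1 sample. Atp6v0d1 kept its call in all 24 alternatives. The stretches around the motif are shown for the 5 increased genes, and for Naglu and Mcoln1 as genes that were not called, on the strand of the gene, with CACGTG in capitals and positions counted from the start site.
Gla (chrX:134601182-134601211, - strand, first motif base at -194): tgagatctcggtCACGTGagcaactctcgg
Glb1 (chr9:114401018-114401047, + strand, first motif base at -48): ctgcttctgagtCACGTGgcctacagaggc
Gaa (chr11:119267811-119267840, + strand, first motif base at -140): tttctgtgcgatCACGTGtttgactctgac
Lamp1 (chr8:13159121-13159150, + strand, first motif base at -28): gatgccgactggCACGTGaccacatcacgt
Atp6v0d1 (chr8:105566050-105566079, - strand, first motif base at -3): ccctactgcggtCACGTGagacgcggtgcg
Naglu (chr11:101070009-101070038, + strand, first motif base at -73): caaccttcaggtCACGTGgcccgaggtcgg
Mcoln1 (chr8:3500436-3500465, + strand, first motif base at -71): ggtcgcgcttgtCACGTGttcagttcaggc
Lamp1 held 4 such motifs in its window, and Gla, Cln3, Mcoln1 and Atp6v0b held 2. None of the promoters of Tfeb, Tfe3, Mitf, Gusb, Gm2a or Grn held the motif, which says only that these letters are not in these windows.

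**Figure D2:**
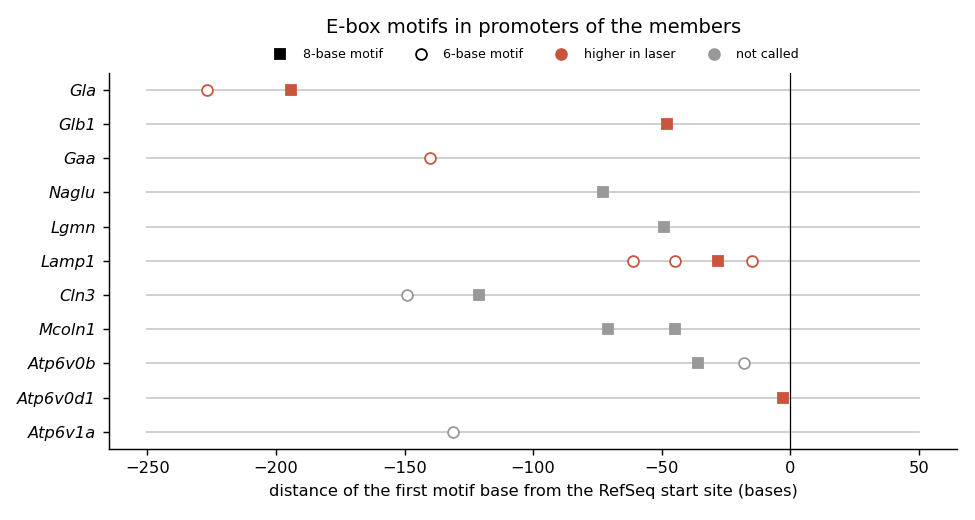
Position of each E-box motif in the promoters of 11 lysosomal genes, as the distance in bases from the RefSeq start site, with filled squares for the 8-base motif, open circles for the 6-base motif alone, red for genes increased in laser (CNV d3) and grey for genes not called. Lamp1 has 4 motifs between -61 and -15, and the motif of Atp6v0d1 starts at -3.

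Among the glycosidases, which cut sugars from glycans and glycolipids, 4 of 10 genes were increased, and 3 of the 9 with a mean of at least 500 normalized counts. The share increased was 8.29% over all genes and 18.6% at that level. No glycosidase was decreased (nor by limma at an unadjusted p under 0.05, nor by edgeR or DESeq2), beside 4.57% and 12.7%. A log2FC above 0 was found for 9 of the 10, beside 16188 of 27299 genes in all and 3393 of 6202 at that level. Gla (chrX:134588149-134601125, - strand, GRCm38) encodes alpha-galactosidase A, which removes terminal galactose from glycolipids and is deficient in Fabry disease. Its level in control was 47.7 to 338 normalized counts (median 247) and in CNV d3 367 to 788 (median 592), a 2.72-fold higher mean (log2FC = 1.69 ± 0.43 SE, adjusted p = 0.016). Control samples 4 and 6 were the lowest with 104 and 47.7, and the lowest CNV d3 sample was sample 4 with 367, just above the highest control. The call of Gla was lost in 5 of the 12 fits that left out 1 sample (CNV d3 sample 2, 3, 5 or 6 or control sample 4), where the log2FC was 1.54 to 1.72 and the highest adjusted p was 0.069. The log2FC is a difference of mean log values, to which the low control sample 6 added: without it the log2FC was 1.32, under the threshold of the study, at an adjusted p of 0.023 (0.023 to 0.069 over the 12 fits). Gusb (chr5:129989011-130003049, - strand) encodes beta-glucuronidase, which degrades glycosaminoglycans. It ranged from 9021 to 12562 normalized counts (median 10834) in control and from 18364 to 26352 (median 20083) in CNV d3, with every CNV d3 sample far above the control samples (1.91-fold, log2FC = 0.94 ± 0.10 SE, adjusted p = 5.0e-05). Sample 6 of CNV d3 was the highest.

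Glb1, the lysosomal beta-galactosidase, was measured at 2506 to 3890.2 normalized counts (median 3198) in control and at 3509 to 5091 (median 4467) in CNV d3 (log2FC = 0.44 ± 0.13 SE, adjusted p = 0.032). Gaa, the acid alpha-glucosidase that breaks down glycogen, was measured at 3584 to 5445 normalized counts (median 4263) and 4952 to 6253 (median 5513) (log2FC = 0.34 ± 0.10 SE, adjusted p = 0.044). In both the groups overlapped, and leaving out 1 sample kept the call in 4 of 12 fits for Glb1 (CNV d3 sample 3 or 4 or control sample 3 or 4, log2FC 0.48 to 0.50) and in 3 of 12 for Gaa (CNV d3 sample 3 or control sample 3 or 6, log2FC 0.37 to 0.40). The other 6 glycosidases were not called. The mannosidase Man2b1, at 45135 ± 2309 normalized counts in control (SD, n = 6) and 52488 ± 10855 in CNV d3, had the widest spread among them in CNV d3, with sample 3 at 35079.7, below all control samples, and sample 4 at 67009 (log2FC = 0.19 ± 0.12 SE, adjusted p = 0.36). Without CNV d3 sample 3 its log2FC was 0.30 and it was called, as was Naglu with a log2FC of 0.27. The log2FC of the sialidase Neu1 was 0.23, of Naglu, which degrades heparan sulfate, 0.21, of the beta-mannosidase Manba 0.18 and of Hexa, the alpha subunit of beta-hexosaminidase, 0.14, with adjusted p-values from 0.16 to 0.38. Galc, which degrades galactosylceramide, was nearly level (log2FC = -0.0041 ± 0.15 SE, adjusted p = 0.99, 95% interval -0.33 to 0.32).

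Among the lipid hydrolases and their helper proteins 1 of 6 genes was increased. Gm2a (chr11:55098115-55113029, + strand) encodes the activator protein that lifts GM2 ganglioside out of the membrane for hexosaminidase A. Its control samples lay at 11638 to 13908 normalized counts (median 13349.5) and its CNV d3 samples at 18066 to 21515 (median 20576), with a wide gap between the groups (1.54-fold, log2FC = 0.62 ± 0.07 SE, adjusted p = 3.7e-05). Psap, the precursor of the saposins that help degrade sphingolipids, ranged from 82034 to 110063 normalized counts (median 94872) in control and from 92654 to 143771 (median 111046) in CNV d3, where sample 2 stood highest (log2FC = 0.24 ± 0.10 SE, adjusted p = 0.14). Npc2, which binds cholesterol in the lysosome and hands it to Npc1, was at 12304 to 17924 normalized counts (median 14658) and 15996 to 17884 (median 16858) (log2FC = 0.19 ± 0.08 SE, adjusted p = 0.15). Both overlapped between the groups, and Npc2 was called by voom and without control sample 3 (log2FC = 0.25). The acid lipase Lipa had 7374 ± 606 in control and 6398 ± 549 in CNV d3 (log2FC = -0.21 ± 0.08 SE, adjusted p = 0.12) and was called lower by DESeq2 and without CNV d3 samples 3 and 6. The acid sphingomyelinase Smpd1 (log2FC = -0.11) and the acid ceramidase Asah1 (log2FC = -0.03) were not called. The control samples of Smpd1 spread from 1398 to 3206 and its CNV d3 samples only from 1766 to 2008.

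Of the proteases, the thioesterase and progranulin, Grn was increased, Tpp1 was decreased and Lgmn and Ppt1 were not called. Grn (chr11:102430315-102437048, + strand) encodes progranulin, a secreted glycoprotein that is delivered to lysosomes and is made by microglia. Its values were 70863 to 88524 normalized counts (median 73279.8) in control and 98974 to 130782 (median 114388) in CNV d3, a 1.48-fold difference with no overlap (log2FC = 0.57 ± 0.08 SE, adjusted p = 2.3e-04). Tpp1, a peptidase that removes tripeptides, had 12719.5 to 15922 normalized counts (median 14413) in control and 11289 to 12808 (median 12319.7) in CNV d3 (log2FC = -0.25 ± 0.07 SE, adjusted p = 0.024). The groups of Tpp1 overlapped by control sample 2 alone, at 12719.5, which lay below the 2 highest CNV d3 samples. Lgmn, the asparaginyl endopeptidase that activates cathepsins, had 113538 to 136900 normalized counts (median 118785) in control and 97687 to 127337 (median 106709) in CNV d3 (log2FC = -0.13 ± 0.07 SE, adjusted p = 0.28). Ppt1, which removes palmitate from proteins, had 12926 to 16473 normalized counts (median 14424) and 13946 to 17194 (median 15127) (log2FC = 0.10 ± 0.08 SE, adjusted p = 0.46).

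Among the 6 membrane proteins Lamp1 was increased and Npc1 was decreased. Npc1 exports cholesterol from the lysosome. It was measured at 3092 to 3982 normalized counts (median 3377) in control and at 2095 to 2546 (median 2275) in CNV d3, so that its mean fell to 0.67 of control with no overlap (log2FC = -0.58 ± 0.09 SE, adjusted p = 8.1e-04). Npc1 and Npc2 act in the same step, and their log2FC had opposite signs (-0.58 and 0.19), of which only that of Npc1 was called; the difference between them was not tested. Lamp1, one of the most abundant proteins of the lysosomal membrane, had 36648 to 40367 normalized counts (median 39148) in control and 40113 to 49274 (median 45556) in CNV d3 (log2FC = 0.22 ± 0.06 SE, adjusted p = 0.033). Its groups met at the edge, with CNV d3 sample 3 at 40113 below control samples 5 and 6, and its call was lost in 6 of 12 fits that left out 1 sample (CNV d3 sample 1, 4 or 5 or control sample 1, 2 or 3, log2FC 0.19 to 0.22). Its exons share 9.31% of their bases with those of Grtp1, where reads counted without strand cannot be assigned, and such overlaps also covered over 5% of Hexa (12.8%), Atp6v0b (11.8%), Cln3 (7.65%), Glb1 (5.49%) and Npc1 (5.31%). The related Lamp2 had nearly equal means of 36325 ± 3943 and 36331 ± 2697 (log2FC = 0.0039 ± 0.08 SE, adjusted p = 0.97, 95% interval -0.16 to 0.17). Scarb2, the receptor that brings glucocerebrosidase to the lysosome, had 7992 ± 931 and 8805 ± 361 (log2FC = 0.15 ± 0.08 SE, adjusted p = 0.29) and was called without control sample 3 (log2FC = 0.20). The cation channel Mcoln1 (log2FC = 0.05) and the Batten disease gene Cln3 (log2FC = -0.03) were not called.

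The 3 transcription factors that can drive lysosomal genes were not called by limma, edgeR or DESeq2, and 1 of them, Tfeb, had an unadjusted limma p under 0.05. Tfeb was at 812 to 1562 normalized counts (median 1044) in control and 634 to 1034 (median 841) in CNV d3 (log2FC = -0.39 ± 0.17 SE, adjusted p = 0.15, 95% interval -0.75 to -0.04). Tfe3 was at 2481 to 4029 normalized counts (median 3294) and 2556 to 3079.5 (median 2749.6) (log2FC = -0.22 ± 0.12 SE, adjusted p = 0.29, 95% interval -0.47 to 0.04). Mitf was at 487 to 1008 normalized counts (median 613) and 452 to 814 (median 512) (log2FC = -0.30 ± 0.20 SE, adjusted p = 0.41, 95% interval -0.73 to 0.14). All 3 means were lower in CNV d3 and all 3 pairs of groups overlapped, with control sample 3 highest for Tfeb, control sample 6 for Tfe3 and control sample 2 for Mitf. These are transcript levels, and the activity of these factors is set largely by where in the cell they are, which was not measured.

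Of the 5 genes of the V0 sector, which forms the path of the protons through the membrane, 1 was increased. Atp6v0d1 (chr8:105524465-105566047, - strand) encodes the d subunit that connects V0 to the central stalk. Its samples lay at 1513 to 1976 normalized counts (median 1833) in control and at 2216 to 2955 (median 2614) in CNV d3, without overlap (1.49-fold, log2FC = 0.58 ± 0.11 SE, adjusted p = 0.0021). The proteolipid genes Atp6v0b and Atp6v0c, which form the rotating ring, and Atp6v0a1 had log2FC of -0.09, -0.07 and 0.09 and were not called. Atp6v0b had 3876 to 5340.5 normalized counts (median 3999) in control and 3586 to 4544 (median 3812) in CNV d3, Atp6v0c had 2185 to 3013 normalized counts (median 2557) and 1997 to 2953 (median 2459.8), and Atp6v0a1 had 1988 to 3883 normalized counts (median 3405) and 2862 to 3799.6 (median 3231). Their groups overlapped widely.

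The d subunit has a second gene, Atp6v0d2, known from osteoclasts and some macrophages. It had 55 reads in control sample 2 and 0 reads in the other 5 control samples, and 13, 0, 22, 0, 87 and 3 reads in CNV d3 samples 1 to 6. As a share of Atp6v0d1 plus Atp6v0d2 it was 0.586% ± 1.44 in control and 0.612% ± 1.00 in CNV d3 (SD, n = 6 each), a difference of 0.026 percentage points (two-sided exact permutation test over 924 labelings, p = 0.92). The sign of this difference turned without CNV d3 sample 5 (-0.37) and without any control sample other than sample 2 (-0.091). No change of Atp6v0d2 was detectable at this depth, and a count of 0 allows up to 3 reads, or 3.01 to 5.96 normalized counts per control sample, for counting error alone.

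In the V1 sector, which splits ATP, 2 of 6 genes were increased. The share increased was 8.29% over all genes and 18.6% at a mean of at least 500 normalized counts. A log2FC above 0 was found for 5 of 6, beside 16188 of 27299 genes in all and 3393 of 6202 at that level. Atp6v1b2, a subunit of the ring that binds ATP, had 4289.9 to 6978 normalized counts (median 5596) in control and 6753 to 9006 (median 8094) in CNV d3 (log2FC = 0.52 ± 0.12 SE, adjusted p = 0.012), where control sample 3 alone reached into the range of CNV d3. Atp6v1c1, which joins the peripheral stalks, had 2311 to 3492 normalized counts (median 2913) and 3189 to 4019 (median 3855) (log2FC = 0.37 ± 0.11 SE, adjusted p = 0.035), and its call was kept in 4 of 12 fits that left out 1 sample (CNV d3 sample 1 or control sample 4, 5 or 6, log2FC 0.39 to 0.43). Atp6v1a, the catalytic subunit, and Atp6v1d, part of the central stalk, had log2FC as large but a wider spread. Atp6v1a ranged from 1581 to 3656 normalized counts (median 2240.1) in control, with sample 5 highest, and from 2382 to 4103 (median 3788) in CNV d3 (log2FC = 0.54 ± 0.19 SE, adjusted p = 0.075). Atp6v1d ranged from 1287 to 2343 normalized counts (median 2068) and 2229.6 to 3132 (median 2594) (log2FC = 0.50 ± 0.16 SE, adjusted p = 0.056), with control samples 2 and 3 far below the other 4. Neither passed the threshold in the limma fit of all samples and genes. Atp6v1d was called in 7 alternatives, which were TMM, total-count scaling, the filter on low counts, edgeR, DESeq2, voom and leaving out control sample 6 (log2FC = 0.57). Atp6v1a was called in 4, which were the filter, DESeq2, the replicate block and leaving out control sample 5 (log2FC = 0.68). Atp6v1e1 (log2FC = -0.05) and Atp6v1h (log2FC = 0.06), a stalk subunit and a regulatory subunit, were not called.

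Both accessory proteins of the pump had lower means in CNV d3. Atp6ap1 (chrX:74297097-74304721, + strand), which assists assembly of V0, was at 14839 to 20541 normalized counts (median 16530) in control and at 11921 to 14624 (median 12865) in CNV d3. The highest CNV d3 sample lay just below the lowest control sample (log2FC = -0.39 ± 0.08 SE, adjusted p = 0.0053). Atp6ap2, the prorenin receptor, was at 8123 to 10526 normalized counts (median 10012) and 6744 to 9242 (median 7806) with overlapping groups and was not called (log2FC = -0.29 ± 0.10 SE, adjusted p = 0.074), but it was called lower with the filter on low counts, by DESeq2 and without control sample 3 (log2FC = -0.34).

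**Figure D3:**
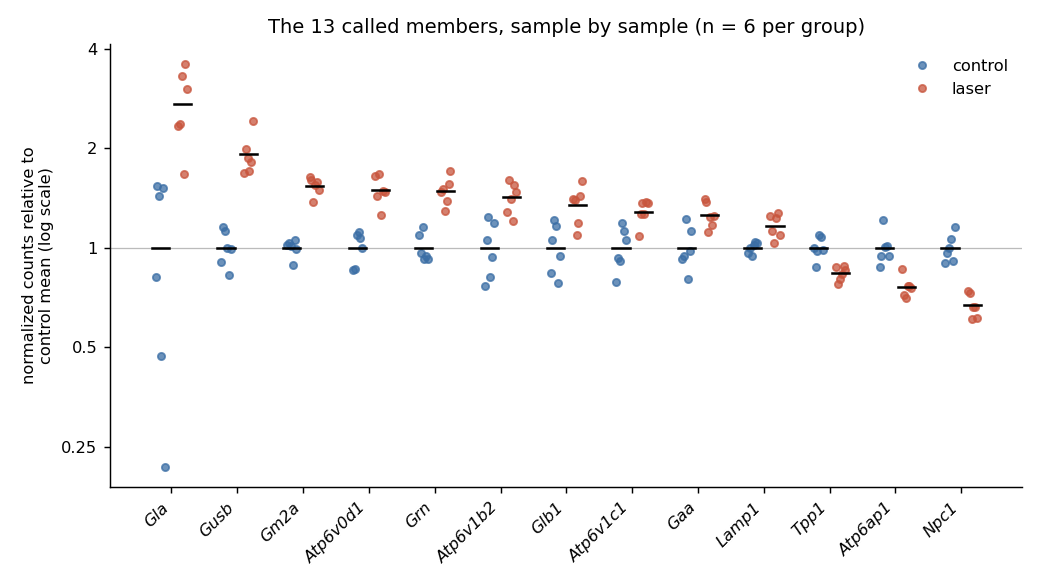
Normalized counts of the 13 called genes in each of the 6 control and 6 laser (CNV d3) samples, divided by the control mean of the gene, on a log axis, with black bars for the group means. The points of the groups are separate for Gla, Gusb, Gm2a, Atp6v0d1, Grn, Atp6ap1 and Npc1 and meet or overlap for the other 6.

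The level of the genes per kilobase of exon covered a wide range and kept much of its order. In control Lgmn was the highest with 51928 ± 3627 normalized counts per kilobase (SD, n = 6), followed by Psap with 34599.9 ± 3476, Grn with 22115 ± 2156, Hexa with 14622 ± 840.1 and Lamp1 with 14511 ± 559, of which Hexa and Lamp1 differed by less than their SD. In CNV d3 the order of the first 3 was the same, with 47578 ± 4725, 41151 ± 6683 and 32815 ± 3160.2, and Lgmn and Psap then differed by less than the SD of Psap. Grn came closer to both. Gusb moved from place 16 to place 9 of 42 (2394 ± 299 to 4583 ± 651), Gm2a from 12 to 8 (3184 ± 191 to 4904 ± 298) and Gla from 41 to 37 (67.2 ± 38.9 to 183 ± 48.2), all as levels per kilobase. Tfeb, Mitf, Galc and Mcoln1 were among the lowest in both groups, with 92.1 to 195 in control and 88.1 to 148 in CNV d3. Leaving out Atp6v0d2, the coefficient of variation over the samples of a group was 3.85% to 57.9% (median 12.97%) in control and 4.10% to 26.4% (median 10.3%) in CNV d3.

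**Figure D4:**
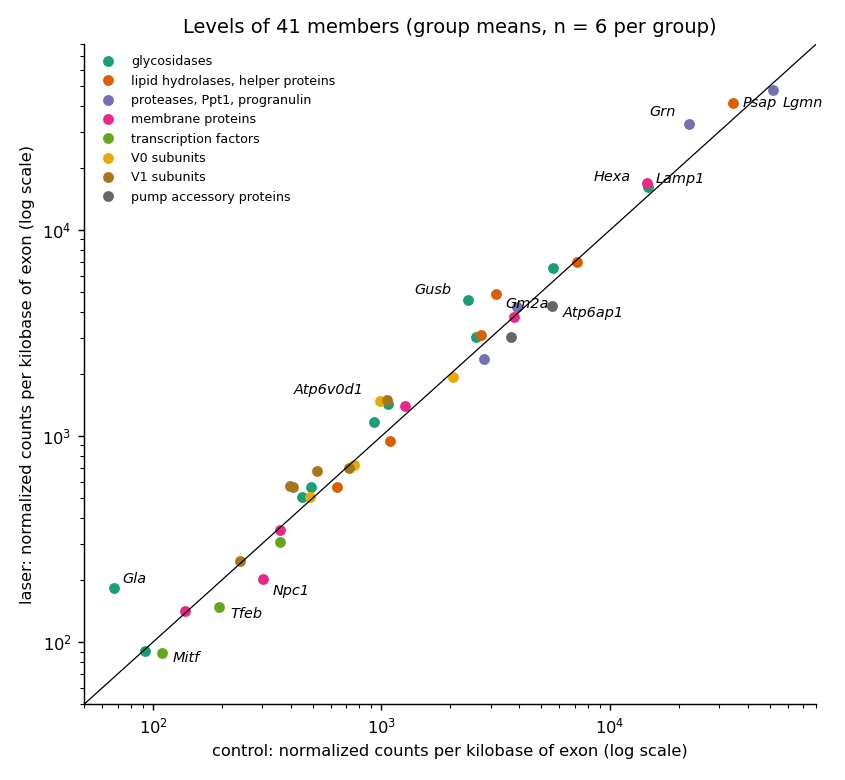
Mean level of 41 of the 42 genes in control (horizontal) and laser (CNV d3, vertical) samples, in normalized counts per kilobase of exon on log axes, coloured by role, with the line of equal levels; Atp6v0d2, at 3.42 and 6.23, is left out. Most genes lie close to the line, Gla, Gusb, Gm2a and Grn lie above it and Npc1 and Atp6ap1 below it.

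Together the 42 genes took 2.93% ± 0.061 in control and 3.36% ± 0.18 in CNV d3 of all normalized counts (SD, n = 6 each). The samples ran from 2.86% to 3.01% in control and from 3.01% to 3.48% in CNV d3, where the lowest sample, sample 3, lay within the range of control. The glycosidases took 0.486% ± 0.0096 in control and 0.611% ± 0.061 in CNV d3, the lipid hydrolases and helpers 0.717% ± 0.04 in control and 0.848% ± 0.087 in CNV d3, and the proteases, thioesterase and progranulin 1.04% ± 0.038 in control and 1.17% ± 0.064 in CNV d3. The V1 subunits took 0.083% ± 0.0081 in control and 0.108% ± 0.01 in CNV d3, and the accessory proteins of the pump 0.122% ± 0.0058 in control and 0.097% ± 0.008 in CNV d3. As summed levels, the 42 genes had means of 640796 normalized counts in control and 721693 in CNV d3, whereas the other lysosomal lists described next had 940212 and 786954, and the cathepsins with cystatin C 1653970 and 1198310 (both lower in CNV d3). The proteases, thioesterase and progranulin had mean sums of 226439 in control and 252191 in CNV d3. In that group the mean of Grn rose from 76829 to 113998, that of Ppt1 was higher, and those of Lgmn and Tpp1 were lower. The lipid hydrolases and helpers had mean sums of 156706 and 182025, of which Psap, which was not called, had 94942 and 112917. These shares, means and sums are descriptions without a test.

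Other genes of the lysosome, from lists written for this comparison, moved in both directions, with 21 of 130 increased (16.2%) and 13 decreased (10%). Over all genes these shares were 8.29% and 4.57%. At a mean of at least 500 normalized counts, 16.5% of these genes were increased and 11% were decreased. Those shares lay slightly below the 18.6% and 12.7% of all genes of that level. Among 31 other hydrolases 7 were increased and 5 were decreased. The acid phosphatase Acp5 was at 53.7 to 214 normalized counts in CNV d3 and listed at 0 in 4 of 6 control samples (highest 17.2). The sulfatase Galns (log2FC = 1.19 ± 0.19 SE, adjusted p = 6.6e-04) and the thiol reductase Ifi30 (log2FC = 1.07 ± 0.14 SE, adjusted p = 2.0e-04) were increased, and the sulfohydrolase Sgsh (log2FC = -1.17 ± 0.19 SE, adjusted p = 9.6e-04) and the phospholipase Pla2g15 (log2FC = -0.89 ± 0.12 SE, adjusted p = 3.2e-04) were decreased. Among 26 other membrane proteins 4 were increased, with Tpcn2 (log2FC = 0.80 ± 0.17 SE, adjusted p = 0.0058) and Cd63 (log2FC = 0.72 ± 0.10 SE, adjusted p = 3.1e-04) not overlapping, and 5 were decreased, with Laptm4a (log2FC = -0.39), Slc11a1 (log2FC = -0.38) and Laptm5 (log2FC = -0.38) not overlapping. Of 11 other pump subunits only Atp6v0a2 was called (log2FC = 0.55 ± 0.10 SE, adjusted p = 0.0017).

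Of 22 genes for delivery to the lysosome, 6 were increased and none was decreased by limma (1 at an unadjusted p under 0.05, none by edgeR and 1 by DESeq2). At a mean of at least 500 normalized counts, 5 of 21 were increased (23.8%), beside 18.6% of all genes of that level. None of these 21 was decreased, beside 12.7%. The mannose 6-phosphate receptor Igf2r had at most 1 read per sample in control and 7.48 to 239.7 normalized counts in CNV d3. Gnptab, which makes the mannose 6-phosphate tag of hydrolases (log2FC = 1.38 ± 0.18 SE, adjusted p = 1.8e-04), and the adaptor subunit Ap1s1 (log2FC = 0.92 ± 0.16 SE, adjusted p = 0.0012) were increased. Of 19 genes for the control of lysosomal genes 1 was increased and 2 were decreased, among them Rptor (log2FC = -0.56 ± 0.13 SE, adjusted p = 0.011), and of 21 autophagy genes 2 were increased, Becn1 (log2FC = 0.88 ± 0.13 SE, adjusted p = 3.5e-04) and Gabarap (log2FC = 0.58 ± 0.10 SE, adjusted p = 0.0018), and 1 was decreased. Among 14 cathepsins and cystatin C, Ctsb, Ctsh and Ctsl were increased (log2FC = 0.51, 0.40 and 0.40) and 3 were decreased, with Ctso (log2FC = -0.73) and the inhibitor Cst3 (log2FC = -1.47) not overlapping. Of 31 proteasome genes 3 were increased, with Psmd8 (log2FC = 0.70) not overlapping, and 1 was decreased, Psmd7 (log2FC = -0.59). Exons of other genes overlap 43.9% of the exon bases of Becn1, 26.8% of Ctsl and 21.6% of Sgsh, so that their counts are less certain. Over all genes 8.29% were increased and 4.57% were decreased. The shares of these lists were not tested against those of all genes or of the 42 genes.

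**Figure D5:**
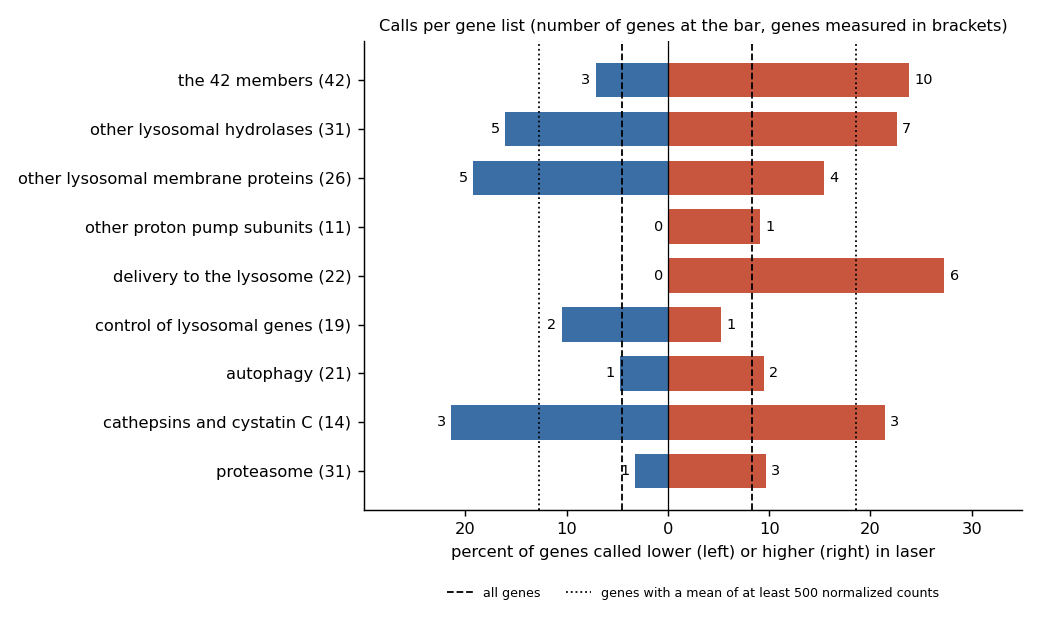
Percent of the genes of each list called lower (left) or higher (right) in laser (CNV d3), with the number of genes at each bar and the genes measured in brackets, beside the percent of all genes (dashed) and of genes with a mean of at least 500 normalized counts (dotted). The 42 genes have 23.8% higher and 7.14% lower, and the dotted lines stand at 18.6% and 12.7%.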

How the data were processed

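Microglial RNA was made into cDNA from low input and sequenced as 50-base single reads without molecular identifiers. As listed there were 19 entries. Of the samples, 7 came in 2 parts and were counted as 1 sample each, which left 12. All control samples came in 2 parts but only 1 CNV d3 sample did, so this split largely followed the groups. Its effect on the comparison was not tested. The authors mapped reads with STAR 2.7.2b to GRCm38.p6 with Gencode M25, counted them with featureCounts 1.6.4 at default settings, without strand, and removed genes with 0 reads throughout. The deposited signal of a sample is the read count divided by its DESeq2 1.22.2 size factor, called a normalized count here. The deposited group means, log2 fold changes and adjusted p-values are the authors' own comparison and were not used. All values were whole multiples of 1 read (within a relative 1e-06), so reads could be recovered. On these reads edgeR called 1952 genes higher and 1181 lower.

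limma 3.58.1 in R 4.3.3 (trend, pseudocount 1) compared the groups over 27299 genes without a filter, and 2264 were called higher and 1247 lower. Replicates differed by more than sampling noise. Data were simulated with 200 of 22715 genes changed by a log2 fold change of 1, all with a control mean of at least 500. On these data limma recovered 131 with 8 false calls, edgeR 175 with 7 and DESeq2 185 with 73. All called lysosomal genes but Gla had a smaller absolute log2FC, so recovery of changes of their size was not measured. Alternatives were TMM, total counts, a filter of 10 normalized counts in 6 samples, pseudocounts of 0.5 and 5, limma without a trend, edgeR 4.0.16, DESeq2 1.42.0, voom, the replicate block, thinning to the shallowest sample and each sample left out; leaving out CNV d3 samples 3 and 6 together was added after seeing the data. The members and lists were chosen with earlier results of these data known. Of the other lists, called genes without overlap are named, at most 3 with the largest rise and 3 with the largest fall; some items are not reported here. Coordinates and exon lengths are from Gencode M21 (GRCm38) and promoters from RefSeq.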

Additional observations from a re-analysis of the deposited data

Results flagged for a closer look

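In 84 groups of 6 samples (42 genes in both conditions, on the log2 scale), 6 had a highest or lowest sample that stood apart from the other 5 by more of the group's range than the 95% critical value of Dixon's test allows, which chance gives in about 1 in 20 such groups. Gm2a was lowest in control sample 4 (gap of 0.642 of the range, 11638 against 13049 normalized counts in the next sample). Lgmn was highest in control sample 5 (0.668, 136900 against 120803). Mitf was highest in CNV d3 sample 2 (0.724, 814 against 532). Atp6v0b was highest in control sample 3 (0.680, 5340.5 against 4296). Atp6v0d2 had reads in control sample 2 alone (1, 55.7 against 0). Atp6v1c1 was lowest in CNV d3 sample 1 (0.647, 3189 against 3704). No 2 of the 6 came from the same sample.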

How the results depend on the processing

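Gusb, Gm2a, Grn, Atp6v0d1 and Npc1 kept direction and call in all 24 alternatives. limma without the trend left 5 increased and 1 decreased of the 42 genes, 7 decreased genes in the other lysosomal lists, 1 increased cathepsin and 1 increased proteasome gene. DESeq2 gave 5 decreased of the 42, 20 decreased genes in the other lists, 7 increased proteasome genes and 2170 decreased genes in all; by edgeR and DESeq2 0 of the 42 passed the threshold of the study, against 10 and 12 increased at an adjusted p under 0.05. voom gave 1 decreased cathepsin list gene and 5 increased proteasome genes, and the filter on low counts 6. Without CNV d3 samples 3 and 6, 6 of the 42 were increased and 0 passed the threshold of the study, 8 genes of the other lists were decreased, 1 proteasome gene was increased, 1124 genes in all were increased and 688 decreased, and the share of counts rose by 0.501 percentage points (0.43 with all samples). Asah1 then had a log2FC of 0.019.

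Leaving out 1 sample gave 5 to 10 increased genes of the 42, 3 to 4 decreased, 0 to 1 past the threshold of the study (0 without CNV d3 sample 2, 3, 5 or 6 or control sample 4 or 6), 2 to 6 increased proteasome genes (6 without CNV d3 sample 4, 5 without control sample 3) and a share of counts 0.406 to 0.501 higher (0.501 without CNV d3 sample 3). The Atp6v0d2 share differed by -0.370 to 0.612. Genes near 0 turned sign when 1 sample was left out: Galc (-0.11 to 0.080), Asah1 (-0.083 to 0.0020), Smpd1 (-0.22 to 0.018), Lamp2 (-0.031 to 0.051), Cln3 (-0.086 to 0.015), Atp6v0a1 (-0.041 to 0.15), Atp6v1e1 (-0.11 to 0.0042) and Atp6v1h (-0.012 to 0.14). Galc was also above 0 with TMM (0.011), total counts (0.022) and voom (0.014), and Lamp2 below 0 after thinning (-0.0060). The cause of these changes was not tested.

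The replicate numbers are shared between the groups, but same-numbered samples did not deviate together (correlation -0.19 to 0.10, and 1 of 6 CNV d3 samples correlated best with its own number). With the replicate block 8 of the 42 genes were increased and 3 decreased, 1885 and 975 over all genes. The depth of control sample 6, 10963178 reads, limits Atp6v0d2 most.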
